A study of Mus musculus with 18 samples.

Results

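Integrins are the heterodimeric receptors, 1 alpha and 1 beta subunit each, by which cells hold the extracellular matrix, and focal adhesion adaptors are the proteins that tie their cytoplasmic tails to actin. The genes described here are 37 of the 18909 genes in the deposited count table, taken by gene symbol: 15 integrin subunits (9 alpha and 6 beta) and 22 adaptors and signalling proteins. RNA was sequenced from cultured mouse tumour cells of the C57BL6 strain. B16F10 is a melanoma line and E0771 a mammary tumour line, and each carried the pRetrox vector as a control, or the same vector with MRTFA or MRTFB. All 6 groups, the controls included, received doxycycline at 500 ng/mL for 48 h to switch the transgene on, and there were 3 libraries in each. Nothing in the labels tells whether the replicates of a group were separate cultures, so every p-value measures only the spread between these libraries. The comparisons ask how far each factor changed the receptors and how far the adaptors, in each line, and the 2 MRTF comparisons of a line share its control libraries. The labels do not give the species or isoform of the transgenes, nor whether a line is 1 clone.

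Talins and kindlins bind beta tails and switch integrins to the active state. Vinculin, tensins and the ILK-PINCH-parvin complex then connect the receptor to actin, while FAK and Src kinases and their scaffolds carry the signal onward. The 2 MRTF proteins bind monomeric actin, which holds them in the cytoplasm, and when released they act in the nucleus as partners of SRF, a factor that binds a DNA element called the CArG box. MRTF-SRF activity is known for switching on actin cytoskeleton and adhesion genes, and it depends in turn on the state of the actin it helps to build.

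Library depth was 27607055 to 37116655 recovered reads. A value below, called scaled reads, is a gene's reads divided by the size factor of its library, and a gene was called when its limma adjusted p (two-sided, Benjamini-Hochberg over all genes tested) was under 0.05. The targeted genes were checked first. Mkl1, which encodes MRTFA, was at 1124, 1514 and 1408 scaled reads in the 3 E0771 control libraries and 12469, 16556 and 12159.7 in those with MRTFA (log2 difference 3.34, SE 0.19, adjusted p = 4.68e-07). Mkl2, which encodes MRTFB, was at 1235, 1349.9 and 1446 in E0771 controls and 2056, 2206 and 2211 with MRTFB (log2 difference 0.68, SE 0.10, adjusted p = 0.0306), without overlap, though this call was lost without each of the 6 libraries in turn (0.63 to 0.74). In B16F10 neither call was made. Mkl1 differed by 0.22 on the log2 scale in the libraries labelled MRTFA (adjusted p = 0.856), and Mkl2 by 0.35 in those labelled MRTFB (adjusted p = 0.503). Mkl2 was at 1290, 1333 and 1881 in B16F10 controls and 1964, 1738 and 1955 with the MRTFB label. These groups overlapped, though each labelled library was above the control of the same replicate number. With that number as a block in limma, the adjusted p was 0.0534 for Mkl2 and 0.309 for Mkl1, so neither was called. The B16F10 groups are therefore written as labelled below. Whether the deposited counts include every read of the transgenes was not tested. Summed melanocyte markers were at 561637 to 757748 scaled reads in B16F10 and 369 to 636 in E0771. Of 8 mammary epithelial markers 7 are in the table. Their sum was 5851 to 7926 in E0771 controls, of which Krt8 was 5689 to 7794, while Cdh1 was at 4.03 to 5.01 and Krt5 at 0. In B16F10 the sum was 39.4 to 182.

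Promoters are shown first, because members that moved with MRTFA can be set against the element that SRF binds. RefSeq gave promoters (250 bases before to 50 after a start, GRCm38.p6) for 28 of the 37 genes, 35 in all. No promoter was at hand for Itga6, Itga7, Itgb3, Itgb4, Tln2, Parva, Pxn, Tgfb1i1 and Ptk2, so these were not examined for a box. The CArG box, which reads CC, then 6 bases that are each A or T, then GG, and is the same motif on both strands, was in 4 of those 35 (11.4%) and in 535 of the 32851 promoters in the same table (1.63%). The 4 follow, 5′ to 3′ along the gene's own strand, with the box in capitals. The windows are chr14:20929148-20929447 on the plus strand for Vcl (vinculin), chr15:99820100-99820399 on the minus strand for Lima1 (EPLIN, an actin-bundling LIM protein), chr14:45530016-45530315 on the minus strand for Fermt2 (kindlin-2) and chr5:137314192-137314491 on the minus strand for Trip6 (a zyxin-type LIM protein).
Vcl: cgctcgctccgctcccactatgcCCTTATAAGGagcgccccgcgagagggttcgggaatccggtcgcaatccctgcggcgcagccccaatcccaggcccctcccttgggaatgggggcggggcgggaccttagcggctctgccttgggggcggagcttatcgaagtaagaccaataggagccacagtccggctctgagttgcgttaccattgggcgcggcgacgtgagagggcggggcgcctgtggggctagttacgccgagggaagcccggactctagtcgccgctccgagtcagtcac
Lima1: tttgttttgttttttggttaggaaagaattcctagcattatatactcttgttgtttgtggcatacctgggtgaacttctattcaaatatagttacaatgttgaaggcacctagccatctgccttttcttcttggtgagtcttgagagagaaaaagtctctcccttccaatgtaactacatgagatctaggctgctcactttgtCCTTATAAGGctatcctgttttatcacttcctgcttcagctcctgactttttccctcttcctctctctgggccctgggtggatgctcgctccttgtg
Fermt2: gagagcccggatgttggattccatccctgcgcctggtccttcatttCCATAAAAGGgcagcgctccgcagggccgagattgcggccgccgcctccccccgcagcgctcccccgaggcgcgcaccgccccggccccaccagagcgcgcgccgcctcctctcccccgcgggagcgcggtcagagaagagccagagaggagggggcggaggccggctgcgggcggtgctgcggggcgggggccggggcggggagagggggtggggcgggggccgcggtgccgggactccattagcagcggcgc
Trip6: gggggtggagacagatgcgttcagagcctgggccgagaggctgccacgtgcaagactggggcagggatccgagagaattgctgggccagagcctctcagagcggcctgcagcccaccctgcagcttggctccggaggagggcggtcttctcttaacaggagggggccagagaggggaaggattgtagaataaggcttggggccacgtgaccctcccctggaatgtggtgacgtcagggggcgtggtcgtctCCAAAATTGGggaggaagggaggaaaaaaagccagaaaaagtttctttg
The Vcl and Lima1 boxes have the same letters. The Lima1 window surrounds an internal start, inside the annotated gene (chr15:99778470-99875456, minus strand). Which start these cells used was not tested. Counted from the RefSeq start as 0, the first base of the box is at -227 in Vcl, -47 in Lima1, -204 in Fermt2 and 1 in Trip6. All 4 genes rose with MRTFA in E0771, by 0.63 (Trip6) to 2.91 (Lima1) on the log2 scale, and so did Bcar1, Crk, Ilk, Lims1, Lpp, Tes, Tln1, Tns1, Tns3 and Zyx, with no box in this window, and the integrin subunits Itgav and Itgb1. The promoters of Itga1 and Itga5, the subunits with the largest rises, do not hold these letters either. Among other motifs on either strand, GGAATG, which TEAD factors bind, was in 4 of the 35 (11.4%, against 14.7% of all promoters), TGANTCA, which AP-1 binds, in 3 (8.57% against 7.81%) and GGGCGG in 23 (65.7% against 35.7%). A match is a description of the letters and not a site shown to be bound.

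In control cells the 2 lines differed in their alpha subunits and shared Itgb1 as the main beta subunit. Levels between genes are given as scaled reads per kb of annotated exon (union of exons), mean ± SD of 3 libraries. Among alpha subunits of the E0771 control, Itga5 (fibronectin receptor) was at 811 ± 26.4, Itga6 (laminin receptor) at 744 ± 13.8, Itga3 (laminin receptor) at 611 ± 69.8 and Itgav (vitronectin and RGD receptors) at 347 ± 24.2. Itga7 and Itga1 followed at 28.8 ± 14.0 and 25.0 ± 3.52, and their ranges overlapped. In the B16F10 control the order was Itga6 at 1042 ± 72.9, Itgav at 425 ± 31.6, Itga5 at 363 ± 34.2, Itga4 (a VCAM-1 and fibronectin receptor) at 343 ± 42.7 and Itga9 at 236 ± 42.6. There the libraries' ranges overlapped between Itgav and Itga5, and between Itga5 and Itga4. Taken per kb of the longest transcript instead, Itga6 and not Itga5 led the alpha subunits of the E0771 control.

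Itgb1, the beta-1 partner of most alpha chains, was at 8599 ± 479 per kb in the E0771 control and 7824 ± 795 in B16F10. Its scaled reads were 35991, 32853 and 36438 in the 3 E0771 control libraries and 29255, 30999 and 35539.7 in the B16F10 ones, with overlapping ranges (log2 difference 0.14, SE 0.15, adjusted p = 0.406). It made up 92.0% to 96.4% of the summed beta-subunit transcripts per kb in the group means. Itgb5, another RGD-receptor subunit, came next in both controls, at 385 ± 59.5 per kb in E0771 and 536 ± 71.7 in B16F10. Of the 37 members, 29 were called between the 2 controls (13 higher and 16 lower in E0771), where 70.2% of all 14859 genes tested were called (33.4% higher and 36.8% lower). Upper-quartile scaling turned the split over all genes, from 4963 higher and 5467 lower to 5349 and 5112, and gave 15 members higher and 16 lower.

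Several subunits were nearly confined to 1 line's control. Ratios and limits here take a gene's reads relative to all recovered reads of the group. Itga4 had 13 reads over the 3 E0771 control libraries against 14932 in B16F10, a ratio of 1174 (95% interval 686 to 2206). Itga9 had 3 reads against 5642 (ratio 1922, interval 657 to 9325), Itga2 had 1 against 67 (ratio 68.5, interval 11.9 to 2745), and Itgb8 had 0 against 395, at least 135-fold lower in E0771 with the limit of 3 reads over the group. In the other direction, Itga3 had 13 reads over the B16F10 controls against 10702 in E0771 (ratio 805, interval 471 to 1513), and Itgb7, the partner of Itga4 in lymphocyte homing, had 0 against 1343, at least 438-fold lower in B16F10. Only counting error enters these intervals and limits. Itga4 and Itgb7 were thus each found mainly in the line whose control libraries held few or no reads of the other.

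Adaptors were in every group of both lines. Per kb, the E0771 control held most of Zyx at 1908 ± 523 and Crk at 1723 ± 109, and least of Tns1 at 47.1 ± 14.3 and Tgfb1i1 at 51.3 ± 9.04, which overlapped. The B16F10 control held most of Tln1 at 2406 ± 382 and least of Tgfb1i1 at 2.36 ± 0.621. Tgfb1i1, which encodes the paxillin relative Hic-5, was at 9.62, 16.6 and 13.4 scaled reads in the 3 B16F10 control libraries and at 233, 294 and 333 in the E0771 ones (log2 difference 4.36, SE 0.37, adjusted p = 1.28e-08). Lima1 went the other way, at 6659, 6472 and 7412 in B16F10 and 1478, 1662 and 2117 in E0771 (log2 difference -1.98, SE 0.13, adjusted p = 4.2e-10). Neither pair of groups overlapped. The control differences lost their call without 1 library for 3 genes: Itga1 (-0.52) in 3 of 6 cases, down to -0.40 without B16F10 control replicate 3, with -0.49 and -0.44 without E0771 control replicates 1 and 2. Tln2 (-0.53) lost it without B16F10 control replicate 3 (-0.33), and Pxn (0.43) in 4 of 6 cases (0.35 to 0.39).

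**Figure D1:**
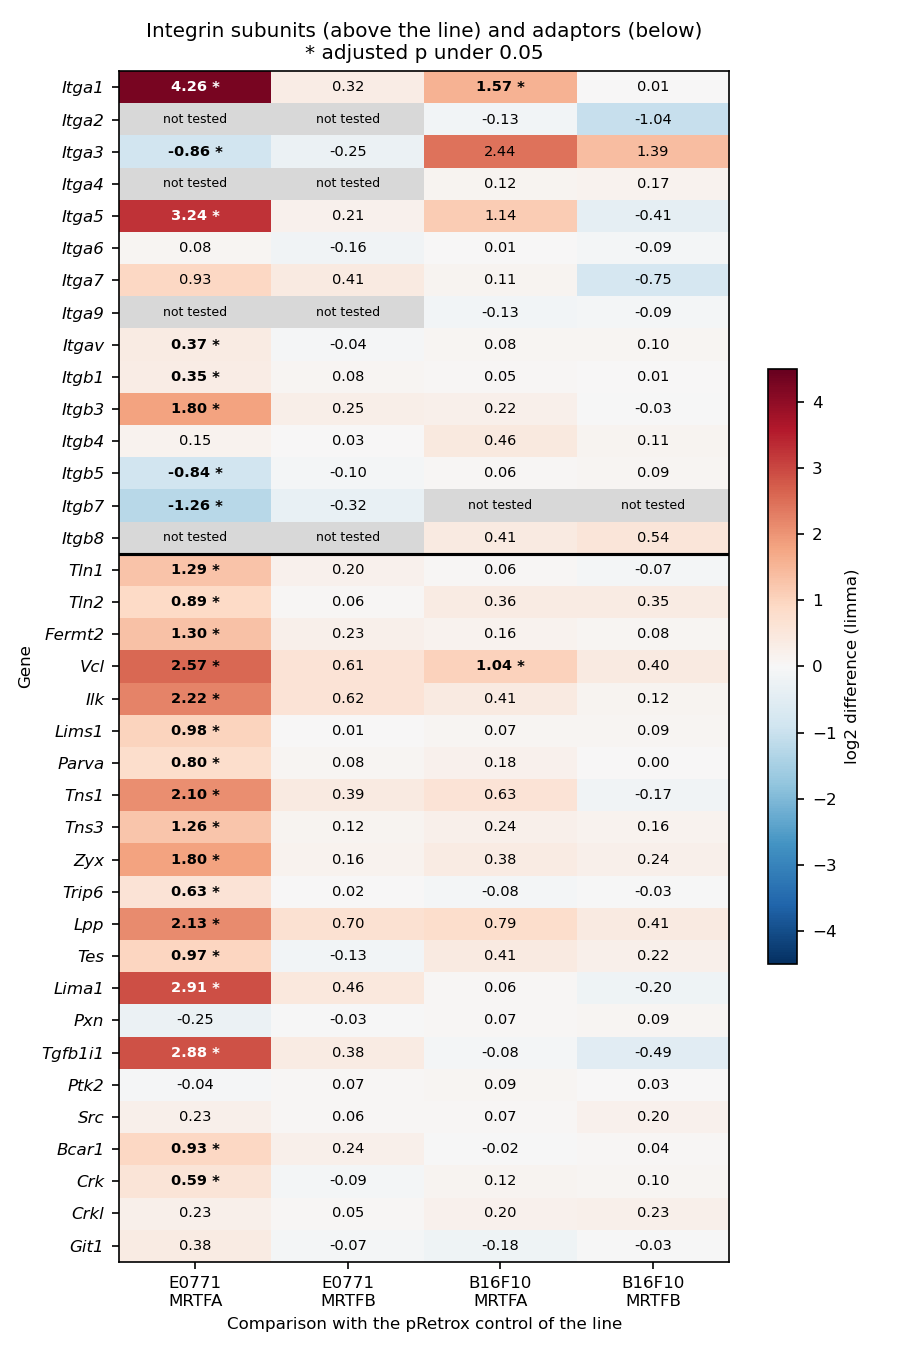
Each cell is limma's log2 difference of a gene (rows) between a transgene group and the control of the same line (columns), with red for higher and blue for lower, and an asterisk where the adjusted p was under 0.05. The E0771 MRTFA column holds 25 asterisks, the B16F10 MRTFA column 2 and both MRTFB columns 0.

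With MRTFA in E0771 most adaptors rose, while integrin subunits moved in both directions. Of 33 members tested, 25 were called, 22 higher and 3 lower, where 38.4% of all 13189 genes tested were called (20.3% higher and 18.1% lower). Over all genes that was 2677 higher and 2387 lower, a split that turned with upper-quartile scaling (2447 and 3026) and with a minimum of 50 scaled reads (2191 and 2353), while 22 and 23 members were then higher and 3 lower. Among adaptors 17 of 22 rose and 0 fell, with a median log2 difference of 0.98. Among integrin subunits 5 of 11 rose and 3 fell, with a median of 0.35. The median over all genes tested was -0.02 and over all 33 members 0.93. In none of the 25 did the 3 MRTFA libraries overlap the 3 controls. Itga2, Itga4, Itga9 and Itgb8 were too low in E0771 to be tested. In bulk RNA, more cells expressing a gene and more RNA per cell cannot be told apart. The summed mammary epithelial markers, 5851 to 7926 in the controls, were 15017 to 17046 with MRTFA, of which Krt8 was 14618 to 16640. The summed immune, endothelial and fibroblast markers (6 of 12 in the table) were 1744 to 3545 in controls and 1042 to 4489 with MRTFA, with Dcn at 0 in the controls. Col1a1 made up much of that sum and varied widely within groups, at 537 to 2535 in controls and 545 to 4088 with MRTFA, while Pdgfra was at 823 to 1007 in controls and 307 to 389.8 with MRTFA, and Lyz2 at 97.1 to 183 and 70.6 to 91.6, neither overlapping. The part of these markers in the members' differences was not tested.

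Itga1, the collagen-binding alpha-1 subunit (ENSMUSG00000042284, chr13:114953096-115101964, minus strand), was at 443, 413 and 538 scaled reads in the 3 control libraries and at 8016, 9866 and 8809 with MRTFA. Every MRTFA library stood far above every control, a rise of 19.2-fold (95% interval 15.8 to 23.2), with log2 difference 4.26, SE 0.13, adjusted p = 6.82e-09. Itga5, the alpha chain of the classical fibronectin receptor (ENSMUSG00000000555, chr15:103344286-103366763, minus strand), went from 4151, 3921 and 3931 to 37590.5, 41089.5 and 35029.7. That was 9.45-fold (95% interval 8.38 to 10.7), the second largest rise among the members (log2 difference 3.24, SE 0.08, adjusted p = 4.31e-09). Itgav, the alpha chain shared by the RGD receptors, rose less, from 3504, 3659 and 4012 to 4740.4, 5117 and 4594 (log2 difference 0.37, SE 0.08, adjusted p = 0.00395).

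Itga3, a laminin-binding subunit, fell from 3031, 3746 and 3692 to 1879, 1739.8 and 2137 (log2 difference -0.86, SE 0.15, adjusted p = 0.00148). Its groups did not overlap, although control replicate 1 was the lowest of the 3. Itga6, the other main laminin-binding subunit, was at 6569, 6788 and 6781 and 6423, 7016 and 7927, with overlapping values (log2 difference 0.08, 95% interval -0.11 to 0.27). Itga7, at 184, 152 and 363 and 486, 307 and 479, was not called (log2 difference 0.93, SE 0.39, adjusted p = 0.0813). It was called without control replicate 3, at 1.30.

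Of the beta subunits, Itgb3, the partner of Itgav in the vitronectin receptor, went from 254, 172 and 237 to 782, 786 and 724 scaled reads (log2 difference 1.80, SE 0.16, adjusted p = 1.16e-05). Itgb1 went from 35991, 32853 and 36438 to 41173, 46340.5 and 46656 (log2 difference 0.35, SE 0.09, adjusted p = 0.00926). The first was a change of 3.49-fold (95% interval 2.72 to 4.47) at a low level and the second of 1.27-fold (95% interval 1.12 to 1.45) in the most abundant subunit. Itgb5 fell from 1164, 1586 and 1357 to 858, 759.8 and 664 (log2 difference -0.84, SE 0.16, adjusted p = 0.00172). Itgb7 was at 281, 304 and 710.2 in controls and 148, 134 and 220.5 with MRTFA (log2 difference -1.26, SE 0.45, adjusted p = 0.0481). Control replicate 3 held the most Itgb7 of all 6. The Itgb7 call was lost without control replicate 2 (-1.44) or 3 (-0.83), or without MRTFA replicate 1 (-1.19) or 2 (-1.12), and edgeR gave an adjusted p of 0.05. Itgb4, of hemidesmosomes, was at 35.2, 59.1 and 74.8 and 67.7, 67.8 and 47.0, with overlap and no call. The other 24 of the 25 calls were kept without each of the 6 libraries in turn.

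The makeup of the alpha transcripts differed with MRTFA. Summed over the 9 alpha subunits, scaled reads per kb were 2567 ± 86.1 in the E0771 control and 9789 ± 595 with MRTFA, a ratio of 3.81. The beta sum went from 9186 ± 496 to 11372 ± 733, a ratio of 1.24. Itga5 made up 31.6% ± 2.09 of the alpha sum in the control and 78.4% ± 1.91 with MRTFA. Itga6, with no call of its own, went from 29.0% ± 0.507 to 8.09% ± 1.16 of that sum, and Itga3 from 23.8% ± 2.05 to 3.45% ± 0.552. The ratio of the alpha to the beta sum was 0.28 ± 0.0171 in controls and 0.863 ± 0.0661 with MRTFA. With the longest transcript as the length, the alpha sum still rose by a ratio of 3.21 and the beta sum by 1.24. These sums are transcript levels, and paired receptors at the surface were not measured.

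**Figure D2:**
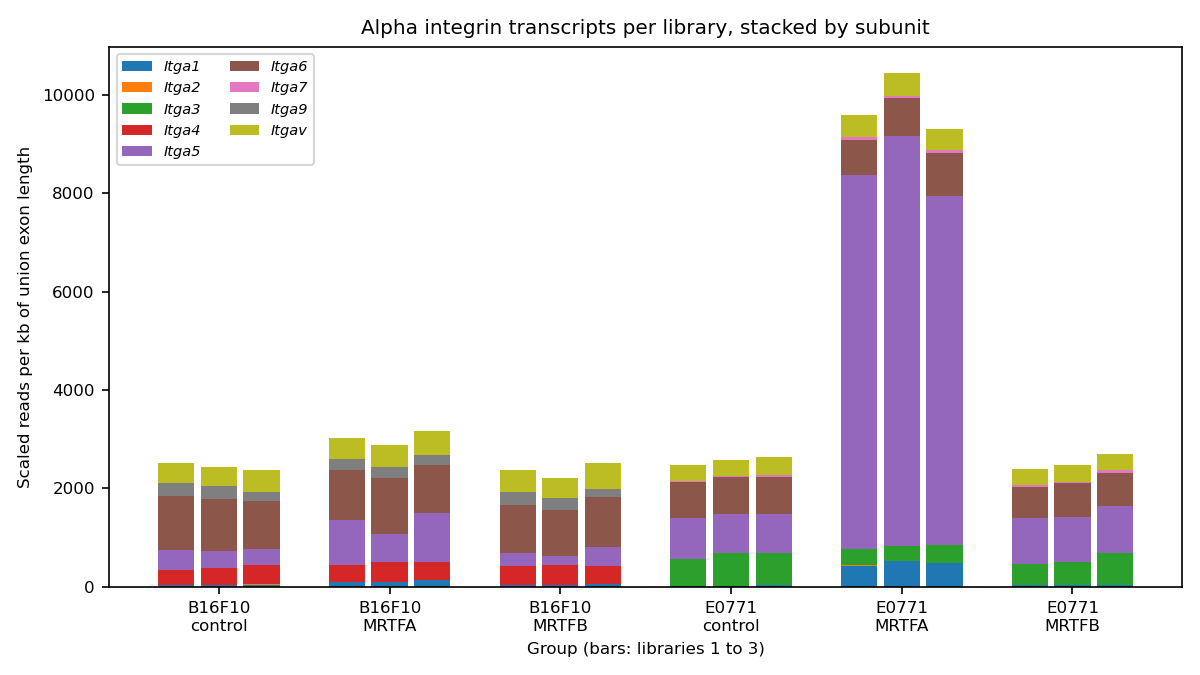
Each bar is 1 library, stacked by alpha subunit in scaled reads per kb of union exon length, with 3 bars per group. The 3 E0771 MRTFA bars reach 9316 to 10457, most of it Itga5, while every other bar lies between 2209 and 3159.

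Talins, kindlin-2 and vinculin rose, all 4 of them. Vcl, which encodes vinculin, the linker from talin to actin (ENSMUSG00000021823, chr14:20929398-21033676, plus strand), was at 2353, 3886 and 4429 scaled reads in control libraries and 18970.5, 22973 and 19396 with MRTFA (log2 difference 2.57, SE 0.22, adjusted p = 1e-05). Tln1, the main talin, went from 8569.8, 11283 and 11790.5 to 26910.4, 27163 and 22789.6 (log2 difference 1.29, SE 0.15, adjusted p = 9.81e-05). The fitted rises were 5.93-fold (95% interval 4.20 to 8.38) and 2.44-fold (95% interval 1.93 to 3.10). Fermt2 (kindlin-2), an integrin coactivator, went from 6201, 6094 and 7376 to 14172, 16998 and 17446 (log2 difference 1.30, SE 0.11, adjusted p = 6.75e-06). Tln2, the second talin, rose least of these, from 2243, 3099 and 2667 to 4740.4, 5534 and 4524 (log2 difference 0.89, SE 0.13, adjusted p = 0.00039). Of the annotated exon bases of Vcl, 25.5% overlap Ap3m1 (log2 difference -0.36, SE 0.10, adjusted p = 0.0168). The Ap3m1 call was lost without control replicate 1 (-0.27) or MRTFA replicate 2 (-0.35) or 3 (-0.33).

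The ILK-PINCH-parvin complex, which sits on the beta tail beside kindlin, rose in all 3 of its members measured. Ilk was at 251, 729 and 589.6 scaled reads in controls and 2566, 2394 and 1767 with MRTFA (log2 difference 2.22, SE 0.39, adjusted p = 0.00131). Its controls were widely spread, with replicate 1 lowest, yet none reached an MRTFA library. Because 89.7% of the exon bases of Ilk overlap Rrp8 or Taf10 in the annotation, and the sources used here do not say how the counting treated strand, the level of Ilk is uncertain. Rrp8 differed by 0.16 (adjusted p = 0.265) and Taf10 by -0.06 (adjusted p = 0.604), neither called. Lims1, which encodes PINCH1, went from 4694, 4809 and 4801 to 8981, 9958 and 9389 (log2 difference 0.98, SE 0.08, adjusted p = 6.72e-06). Parva, the actin-binding alpha-parvin, went from 6560, 5434 and 5935 to 9901, 10464 and 10873 (log2 difference 0.80, SE 0.08, adjusted p = 3.25e-05). The spread of these 2 genes within groups was small beside the difference.

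Both tensins, which bind beta tails in the more central, fibrillar adhesions, rose. Tns1 went from 709.9, 1002 and 550.4 to 3220.4, 3838 and 2529 scaled reads (log2 difference 2.10, SE 0.23, adjusted p = 5.28e-05). Tns3 went from 2692, 2664 and 2965 to 6137, 6797 and 7049 (log2 difference 1.26, SE 0.11, adjusted p = 7.34e-06). In the paxillin family the 2 members parted. Tgfb1i1 (Hic-5) went from 233, 294 and 333 to 2136, 2171 and 1974 (log2 difference 2.88, SE 0.15, adjusted p = 3.57e-07). Pxn, which encodes paxillin itself, was at 2063, 2649 and 2757 and 2039, 2028 and 2166, with overlapping values and no call (log2 difference -0.25, 95% interval -0.65 to 0.15, adjusted p = 0.307). The interval of Tgfb1i1 was 2.54 to 3.22, and the difference between the 2 genes was not tested.

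The LIM proteins grouped here with zyxin rose in all 5 cases. Zyx (zyxin) went from 7027, 11908 and 11920.4 to 32776, 37746 and 33845 scaled reads (log2 difference 1.80, SE 0.25, adjusted p = 0.000286) and was the most abundant adaptor per kb in these libraries, at 6454 ± 485. Lpp, a zyxin relative, went from 1914, 1964 and 3017 to 7914, 11217 and 10652 (log2 difference 2.13, SE 0.19, adjusted p = 1.11e-05). Trip6 went from 2245, 2935 and 2579 to 4281, 4265 and 3459.7 (log2 difference 0.63, SE 0.15, adjusted p = 0.00734), the smallest rise of the 5. Lima1 (EPLIN) had the largest fitted rise of any adaptor, next to that of Tgfb1i1, from 1478, 1662 and 2117 to 12618, 12587 and 13818 (log2 difference 2.91, SE 0.15, adjusted p = 3.53e-07). Tes (testin) went from 5217, 4924 and 6388 to 8844, 10522 and 13187 (log2 difference 0.97, SE 0.16, adjusted p = 0.00099). No value of one group reached the other in any of these genes.

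Of the kinases and signalling scaffolds 2 of 6 were called, 33.3% beside 38.4% of all genes. Bcar1, which encodes the FAK and Src substrate p130Cas, went from 2875, 4798 and 3963 to 7773, 8110.1 and 5962 scaled reads (log2 difference 0.93, SE 0.22, adjusted p = 0.00731). Crk, an SH2 adaptor that binds p130Cas, went from 8576, 7574 and 8299.5 to 11494, 12465 and 12933 (log2 difference 0.59, SE 0.08, adjusted p = 0.000292). Ptk2, which encodes FAK, was at 7862, 7682 and 6961 and 6878, 7762 and 7309, and its 95% interval of -0.23 to 0.16 on the log2 scale includes 0. Src was at 4352, 5559.9 and 5299 and 5972, 6109 and 5666 (log2 difference 0.23, interval -0.07 to 0.53, adjusted p = 0.211). Crkl was close to the threshold without passing it (log2 difference 0.23, SE 0.08, adjusted p = 0.0528), and edgeR called it (adjusted p = 0.0312). Git1, a paxillin-binding scaffold, was at 1699.7, 2528 and 2187 and 3018, 2897 and 2367, overlapping (log2 difference 0.38, SE 0.19, adjusted p = 0.146). With replicate 1 of both groups left out together, Bcar1 (0.67), Trip6 (0.48) and Itgb7 (-1.43) lost their calls.

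**Figure D3:**
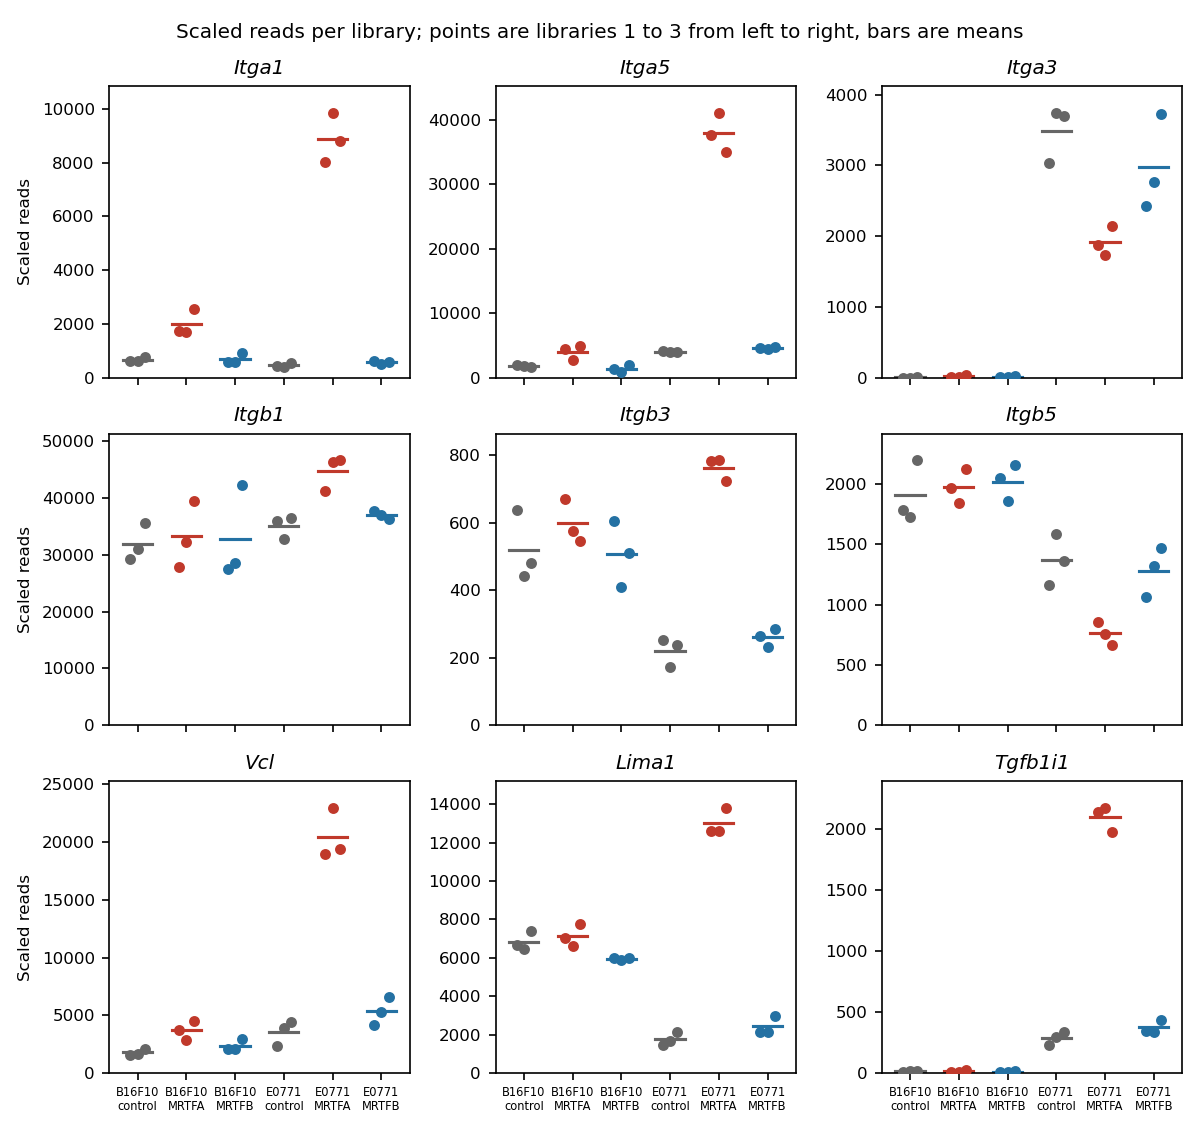
Scaled reads of 9 members on linear axes from 0, with 1 point per library, a bar at each group mean and groups along the horizontal axis. In E0771, MRTFA libraries of Itga1, Itga5, Itgb3, Vcl, Lima1 and Tgfb1i1 stand above all controls and those of Itga3 and Itgb5 below.

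Receptors and adaptors were each summed in all 6 groups, and both sums were highest with MRTFA in E0771. The summed integrin subunits were at 11753 ± 516 scaled reads per kb in the E0771 control, 21161 ± 1049 with MRTFA and 12132 ± 159 with MRTFB. The summed adaptors were at 14665 ± 1535, 32778 ± 1599 and 15945 ± 2159 in the same groups. In B16F10 the integrin sum was 10919.8 ± 793 in the control, 11849 ± 1553 with the MRTFA label and 11061 ± 2183 with the MRTFB label, and the adaptor sum was 15374 ± 1983, 16925 ± 2102 and 16040.4 ± 1878. The library values of both sums overlapped between every pair of B16F10 groups and between E0771 control and MRTFB. By replicate number, the adaptor sum was above its control in all 3 pairs for E0771 MRTFB and both B16F10 labels, and the integrin sum in all 3 for E0771 MRTFB and the B16F10 MRTFA label. The alpha sum did not overlap in B16F10, at 2449.7 ± 71.4 in the control and 3021 ± 139 with the MRTFA label, a ratio of 1.23. The adaptor sum over the integrin sum was 1.25 ± 0.139 in the E0771 control, 1.55 ± 0.0228 with MRTFA and 1.31 ± 0.163 with MRTFB. In B16F10 this ratio was 1.40 ± 0.0812 in the control, 1.43 ± 0.146 with the MRTFA label and 1.46 ± 0.108 with the MRTFB label. Single libraries of these 2 labels reached 1.59 and 1.54, so E0771 MRTFA (1.52 to 1.57) overlapped both B16F10 groups with an MRTF label. That overlap depended on the length used. With the longest transcript as the length, the lowest E0771 MRTFA library was at 1.96. The highest B16F10 libraries were then at 1.85 with the MRTFA label, 1.78 with the MRTFB label and 1.78 in the control. The highest E0771 MRTFB library was at 1.86. These sums are descriptions, with no test.

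MRTFB in E0771 changed no member past the threshold. By limma 0 of 33 were called, where 0.144% of all genes were, and edgeR and limma with the replicate number as a block also called 0 (0.25% of all genes with the block). At an unadjusted p under 0.05 there were 6 of 33, all higher, beside 2.54% of all genes: Itga1, Itga5, Vcl, Lpp, Lima1 and Tgfb1i1. Lpp had the largest difference, from 1914, 1964 and 3017 in control libraries to 3355, 3399 and 4274 with MRTFB (log2 difference 0.70, SE 0.19, adjusted p = 0.609, and 0.067 with the block). Its 3 MRTFB libraries all stood above the controls. Vcl was at 4148, 5266 and 6568 with MRTFB, overlapping its controls (log2 difference 0.61, SE 0.22, adjusted p = 1). Lima1 was at 2146, 2135 and 2981 and Tgfb1i1 at 347, 333 and 437, each library above the controls, by little for replicates 1 and 2 of Lima1 and replicate 2 of Tgfb1i1. Itga5 was at 4585, 4511 and 4747, also above its controls in every library (log2 difference 0.21, SE 0.08, adjusted p = 1). The median difference was 0.03 over 11 integrin subunits and 0.10 over 22 adaptors. Mkl2 was 1.61-fold of control in the MRTFB libraries, where Mkl1 was 10.1-fold of control in the MRTFA ones. The part of these levels in the number of calls was not tested.

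The direct comparison of the 2 factors in E0771 called 24 of 33 members, 22 lower and 2 higher with MRTFB than with MRTFA, where 33.6% of all genes were called (14.5% higher and 19.1% lower). Over all genes that was 1916 higher and 2514 lower. Upper-quartile scaling turned that split, to 2644 and 2282, and left 21 members lower and 2 higher. Of 22 adaptors 17 were lower with MRTFB and 0 higher, from Lima1 (log2 difference -2.44, SE 0.15, adjusted p = 1.14e-06) and Tgfb1i1 (log2 difference -2.50, SE 0.15, adjusted p = 9.75e-07) to Trip6 (log2 difference -0.61, SE 0.15, adjusted p = 0.00983). Itga1 (log2 difference -3.94, SE 0.13, adjusted p = 2.18e-08) and Itga5 (log2 difference -3.04, SE 0.08, adjusted p = 1.19e-08) were the integrin subunits furthest apart. Itga3 (0.61) and Itgb5 (0.75) were higher with MRTFB. Some of these calls depended on 1 library. That of Itga3 was lost without MRTFA replicate 2 (0.55), that of Bcar1 (-0.68) in 4 of 6 cases (-0.71 to -0.48: without MRTFA or MRTFB replicate 1 or 2) and that of Itgb1 (-0.27) in 5 of 6 (-0.29 to -0.24, kept only without MRTFA replicate 1). With the replicate number as a block, which called 43.8% of all genes, Itga6 (-0.24, adjusted p = 0.0271), Itga7 (-0.52, 0.0444) and Itgb7 (0.94, 0.00264) were called as well. This comparison shares its MRTFA libraries with the comparison against control. Mkl1 was 10.1-fold of control in the MRTFA libraries and Mkl2 1.61-fold in the MRTFB ones. Which factor was expressed and how much of its RNA there was cannot be told apart here.

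In B16F10 the libraries labelled MRTFA differed from control in 2 of 36 members tested, where 1.55% of all 13517 genes tested were called (1.34% higher and 0.207% lower). Itga1 was at 615, 604 and 786 scaled reads in the controls and 1752, 1699.9 and 2550 with the MRTFA label. All 3 stood above all controls, a rise of 2.96-fold (95% interval 2.14 to 4.11), with log2 difference 1.57, SE 0.21, adjusted p = 0.00364, and the call was kept without each library in turn. Vcl went from 1593, 1669 and 2065 to 3748, 2872 and 4483, also without overlap (log2 difference 1.04, SE 0.18, adjusted p = 0.0167). That call was lost without control replicate 1 (0.97) or 2 (1.01), or without MRTFA replicate 1 (1.02) or 3 (0.89). Itga5 went from 1964, 1778 and 1627 to 4458, 2772 and 4904, with no overlap and no call (log2 difference 1.14, SE 0.26, adjusted p = 0.0788). The medians were 0.12 over 14 integrin subunits and 0.14 over 22 adaptors, and -0.01 over all genes.

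Libraries of equal replicate number deviated together in this line, and a fit with the number as a block called 9 members, all higher, where it called 6.33% of all genes (3.98% higher). Beside Itga1 and Vcl these were Itga5 (adjusted p = 0.00316 with the block), Lpp (0.000125), Tes (0.00173), Tns1 (0.00283), Itga3 (0.0111), Tns3 (0.021) and Tln2 (0.0405). Lpp was at 1189.9, 1224 and 2189 in controls and 2247, 2028 and 3610.4 with the MRTFA label, so the groups overlapped while each numbered library was above its control (log2 difference 0.79, SE 0.30, adjusted p = 0.391). Tns1 went from 509, 339.8 and 436 to 733, 570.1 and 674, without overlap (log2 difference 0.63, SE 0.16, adjusted p = 0.121). Tln2 was also called without control replicate 3 (0.56). Itga3 rested on few reads, at 0.962, 0 and 11.5 scaled reads in controls and 9.07, 11.4 and 30.5 with the label.

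Other adaptors had small or uncertain differences in B16F10 with the MRTFA label. Lima1 was at 6659, 6472 and 7412 in controls and 7007, 6607 and 7785 with the label (log2 difference 0.06, 95% interval -0.12 to 0.24). Fermt2 was at 8349, 8498 and 8841 and 8910.2, 10275 and 9543 (interval -0.01 to 0.33). Both E0771 differences, 2.91 and 1.30, lie above these intervals. Zyx was at 4750.1, 4676 and 11223 in controls and 7720.4, 5716 and 12500.1 with the label, where replicate 3 was the highest of each group and the interval was wide (-0.48 to 1.24). These intervals do not use the replicate number. By that number, each labelled library of Lima1, Fermt2 and Zyx was above its control, though none of these genes was called with the block. Tgfb1i1 was between 7.24 and 21.9 scaled reads with the label, overlapping its controls.

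The libraries labelled MRTFB in B16F10 gave 0 called members of 36, where 0.126% of all genes were called. Lima1 alone had an unadjusted p under 0.05 (log2 difference -0.20, SE 0.08, adjusted p = 0.509), 2.78% of the members beside 8.87% of all genes, and edgeR also called 0. With the replicate number as a block, which called 4.46% of all genes, Vcl (0.40, adjusted p = 0.0251) and Lpp (0.41, adjusted p = 0.0151) were called. Vcl was at 2096, 2056 and 2902 scaled reads there and Lpp at 1879, 1477 and 2722, both overlapping their controls. Between the 2 labels, Itga1 (log2 difference -1.56, SE 0.21, adjusted p = 0.00477) and Itga5 (log2 difference -1.55, SE 0.26, adjusted p = 0.0188) were lower with MRTFB, where 1.09% of all genes were called (1.08% lower). Itga1 was at 567, 572 and 911 and Itga5 at 1312, 937 and 1978 with MRTFB, below every MRTFA library. The Itga1 call was lost without MRTFA replicate 1 (-1.64) or 3 (-1.37). The Itga5 call was lost without MRTFA replicate 1 (-1.45) or 3 (-1.39) or MRTFB replicate 1 (-1.53) or 2 (-1.28). With the block 6 members were called, these 2 and Vcl (-0.65, adjusted p = 0.00112), Tns1 (-0.81, 0.00076), Lpp (-0.37, 0.0216) and Lima1 (-0.26, 0.0358), all lower with MRTFB, where 2.66% of all genes were (2.56% lower).

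The difference between lines in the MRTFA effect (E0771 minus B16F10, all 18 libraries fitted together) was itself called for 20 of 37 members, 17 higher and 3 lower, where 21.1% of all 14859 genes were called (12.6% higher and 8.55% lower). The adaptors with the lowest adjusted p were Lima1 (log2 difference 2.85, SE 0.18, adjusted p = 3.73e-08), Fermt2 (log2 difference 1.15, SE 0.13, adjusted p = 1.32e-05) and Tns3 (log2 difference 1.02, SE 0.18, adjusted p = 0.000613). Among integrin subunits Itga1 (log2 difference 2.69, SE 0.26, adjusted p = 2.24e-06), Itga5 (log2 difference 2.10, SE 0.30, adjusted p = 0.000103) and Itgb3 (log2 difference 1.59, SE 0.25, adjusted p = 0.00022) rose more in E0771 than in B16F10. Of the 22 adaptors 13 were called higher and 0 lower, with a median of 0.93. Of the 15 integrin subunits 4 were called higher and 3 lower, with a median of 0.29. Itga2, Itga4, Itga9 and Itgb8 were too low to be tested within E0771, and Itgb7 within B16F10. They entered this contrast through their level in the other line, so their values here rest on few or no reads in 1 line. Itga9 is among the 4 called higher and Itgb7 among the 3 called lower. Upper-quartile scaling moved the split over all genes from 1867 higher and 1271 lower to 1668 and 1786, and the members stayed at 17 and 3. Mkl1 itself differed between the lines in the same contrast (log2 difference 3.12, SE 0.28, adjusted p = 9.84e-07), and its part in these differences was not tested. For MRTFB the line difference was called for 0 of 37 members (0.114% of all genes), and edgeR also called 0. Lima1 alone had an unadjusted p under 0.05, 2.70% of the members beside 5.46% of all genes, and with the block, which called 0.545% of all genes, it was called (0.66, adjusted p = 0.0185).

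**Figure D4:**
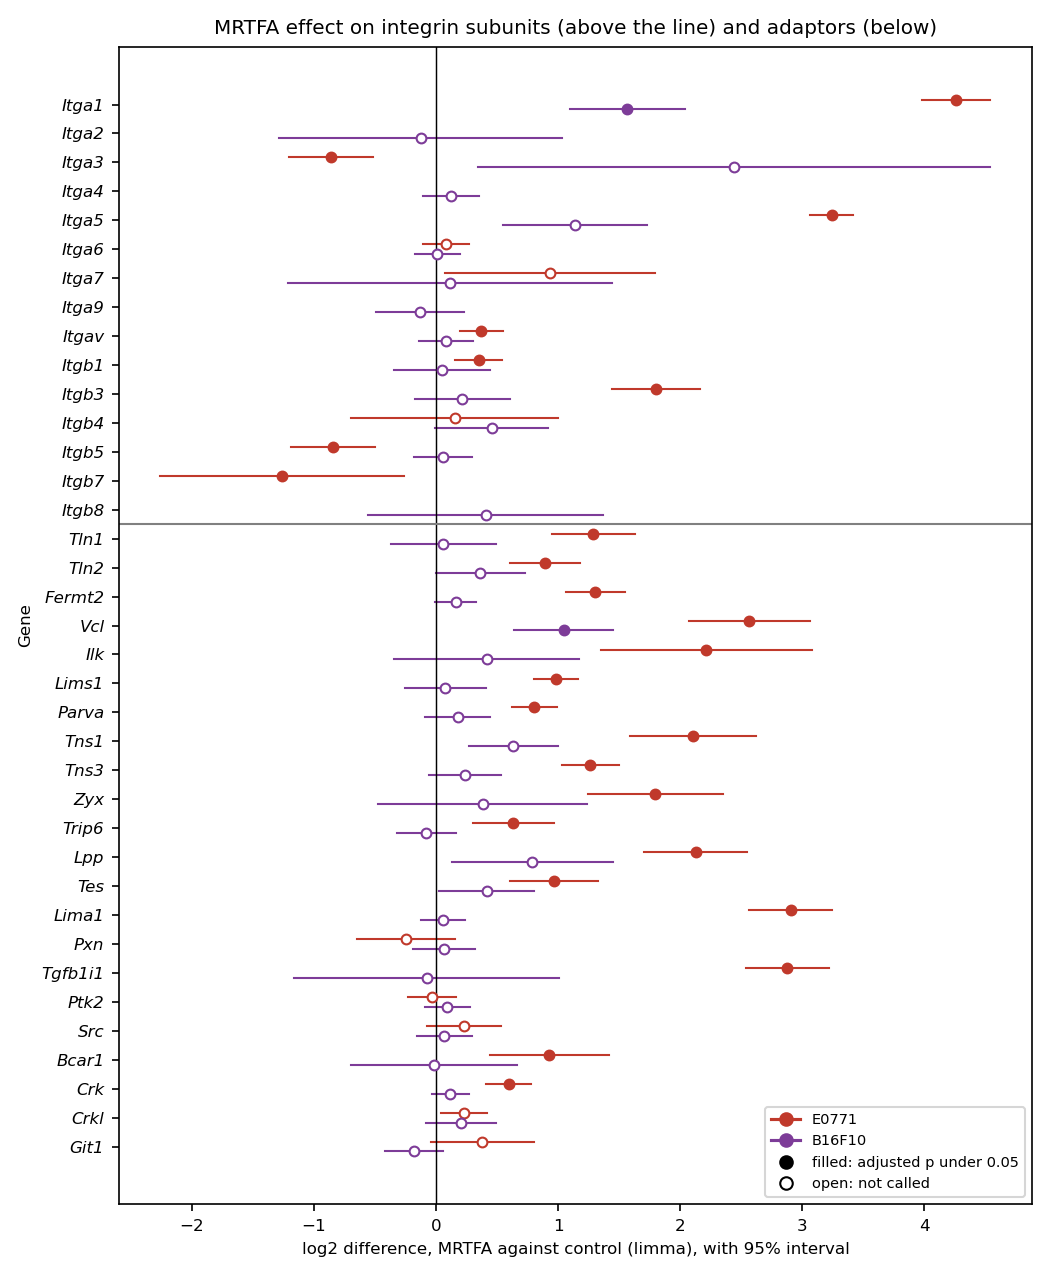
For each gene (rows) the points are limma's log2 differences of MRTFA against control in E0771 (red) and B16F10 (purple), with 95% intervals, filled where the adjusted p was under 0.05. Below the line the red adaptor points lie to the right of the purple ones for 20 of 22 genes, while above it 2 red integrin points with a purple partner, Itga3 and Itgb5, lie to the left of 0.

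Around these members, 102 other genes of the same pathway were listed, of which 96 are in the table. With MRTFA in E0771, 43 of 84 tested rose and 4 fell (51.2% and 4.76%, median 0.83), where 20.3% of all genes rose and 18.1% fell. Other focal adhesion and actin linkers followed the adaptors, with 20 of 30 higher and 0 lower, among them Kank1 (log2 difference 3.61, SE 0.15, adjusted p = 5.13e-08), a talin-binding protein at adhesion rims. Of 22 integrin ligands, 13 rose and 1 fell. Ctgf, a matricellular protein, went from a mean of 1028 to 33502 scaled reads (log2 difference 5.01, SE 0.16, adjusted p = 9.41e-09). Tnc (tenascin-C) went from 782 to 18819 (log2 difference 4.59, SE 0.15, adjusted p = 9.78e-09), and Fbn1 (fibrillin-1) from 5.91 to 1517 (log2 difference 7.80, SE 0.25, adjusted p = 9.78e-09). Spp1, which encodes osteopontin, fell (log2 difference -1.49, SE 0.20, adjusted p = 0.00025), as did Itgb2, the leukocyte beta-2 subunit (log2 difference -1.95, SE 0.27, adjusted p = 0.000301), and Apbb1ip (RIAM), a talin recruiter (log2 difference -0.96, SE 0.17, adjusted p = 0.00142). Other adhesion signalling genes were mixed, with 8 of 25 higher and 1 lower.

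With MRTFB in E0771, 1 of 84 listed genes was called, beside 0.144% of all genes. Ctgf rose from a mean of 1028 to 2137 scaled reads (log2 difference 1.03, SE 0.16, adjusted p = 0.038), and the call was lost in 5 of 6 cases with 1 library left out (0.89 to 1.07), all but MRTFB replicate 1. With the MRTFA label in B16F10, 4 of 81 rose and 0 fell, beside 1.34% and 0.207% of all genes. They were the ligands Col3a1 (collagen III, from 3.52 to 245, log2 difference 5.86, SE 0.62, adjusted p = 0.000707) and Fbn1 (from 3.84 to 101, log2 difference 4.53, SE 0.49, adjusted p = 0.000824), and the actin linkers Pdlim5 (log2 difference 0.50, SE 0.09, adjusted p = 0.0159) and Nexn (log2 difference 0.72, SE 0.13, adjusted p = 0.018). The Pdlim5 call was lost without control replicate 1 (0.50) or 2 (0.46) or MRTFA replicate 1 (0.52) or 3 (0.43), and that of Nexn without control replicate 2 (0.73) or any MRTFA replicate (0.69 to 0.77). With the MRTFB label in B16F10 limma called 0 of 81, with 10 at an unadjusted p under 0.05 (12.3%, beside 8.87% of all genes).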

How the data were processed

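RNA of 18 libraries in 6 groups of 3 was analysed, with groups and replicate numbers taken from the sample titles. Per the submitters' processing notes the tools were cutadapt 1.6, STAR 2.5.0a, HTSeq 0.5.3 and DESeq with the mm10 build. The annotation release and the treatment of strand were not given in the sources used here. The deposited values are a signal that the authors made by dividing reads by DESeq size factors. Divided by the smallest value of its library, 100% of values were whole within 1e-06 reads, and these recovered reads went into edgeR, which called 4908 genes for MRTFA and 13 for MRTFB in E0771, and 213 and 16 in B16F10. Between 2 libraries of a group, chi-square over its degrees of freedom was 11.7 to 59.2, so libraries of a group differed by more than counting noise.

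Differences were tested in R 4.3.3 by limma 3.58.1 with a trend, on log2(signal + 1), over genes at 10 or more in at least 3 fitted libraries. A log2 difference on this scale understates changes of genes with few reads. The 9 libraries of a line were fitted together, and all 18 for line differences and controls. edgeR 4.0.16 (quasi-likelihood, recovered reads), other scalings, filters and pseudocounts, each library left out, and replicate number as a block were alternatives. With 1 library left out, the remaining 2 share the spread of all fitted groups. All p-values are two-sided. The labels name no molecular identifiers.

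Deviations from group means correlated between equal-numbered libraries by 0.353 to 0.567 (MRTFA) and 0.382 to 0.486 (MRTFB) against control in B16F10, by 0.459 to 0.553 for MRTFB in E0771, and by 0.403 to 0.634 and 0.134 to 0.474 between factors in B16F10 and E0771, so these were read as paired. The main calls, intervals and figures still come from fits without the block and do not use this pairing. The fit with the block was an alternative. The numbers were not read as pairs for MRTFA in E0771 (0.084 to 0.525), the line differences (lowest -0.078 and 0.031) or the controls (0.084 to 0.172). What a shared number stands for is not in the labels.

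Members and lists were chosen with earlier results of these data known. All 37 members could be named, with library values for those called against control, and at most 4 higher and 3 lower other pathway genes per comparison by adjusted p. Exon lengths and positions are from GENCODE M21 (GRCm38), and promoters from RefSeq.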

Additional observations from a re-analysis of the deposited data

Results flagged for a closer look

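The effect of MRTFA differed between E0771 and B16F10, by a limma interaction test over all 18 libraries, for 20 of 37 members, where 21.1% of all 14859 genes tested were called. Mkl1 itself differed in this test (log2 difference 3.12, adjusted p = 9.84e-07) and was not called with the MRTFA label in B16F10. Its part in the differences below was not tested. In log2 units (E0771 minus B16F10) the receptor subunits that rose more in E0771 were at 2.69 for Itga1 (adjusted p = 2.24e-06), 2.10 for Itga5 (adjusted p = 0.000103) and 1.59 for Itgb3 (adjusted p = 0.00022). Itga9 was at 2.10 (adjusted p = 0.00515), on 3 reads in all in E0771 controls and 6.97, 4.64 and 9.40 scaled reads with MRTFA, against 1915, 2079 and 1447 in B16F10 controls. The subunits with a lower MRTFA effect in E0771 than in B16F10 were at -3.30 for Itga3 (adjusted p = 0.0307), -0.90 for Itgb5 (adjusted p = 0.00379) and -2.59 for Itgb7 (adjusted p = 0.0234). Of these, Itga3 in B16F10 rested on 0 to 30.5 scaled reads and Itgb7 on 0 to 3.10 in the control and MRTFA groups, and edgeR gave Itgb7 an adjusted p of 0.103.

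Among proteins at the beta tail the differences were 1.23 for Tln1 (adjusted p = 0.00392), 1.15 for Fermt2 (adjusted p = 1.32e-05), 1.52 for Vcl (adjusted p = 0.00281), 1.80 for Ilk (adjusted p = 0.035), 0.91 for Lims1 (adjusted p = 0.0017) and 0.63 for Parva (adjusted p = 0.00723). For tensins and LIM proteins they were 1.47 for Tns1 (adjusted p = 0.00281), 1.02 for Tns3 (adjusted p = 0.000613), 0.71 for Trip6 (adjusted p = 0.0173), 1.34 for Lpp (adjusted p = 0.0219) and 2.85 for Lima1 (adjusted p = 3.73e-08). The remaining 2 were 2.96 for Tgfb1i1 (adjusted p = 0.000714) and 0.48 for Crk (adjusted p = 0.0029). In B16F10 Tgfb1i1 was at 9.62, 16.6 and 13.4 scaled reads in controls and 11.1, 7.24 and 21.9 with the MRTFA label.

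Leaving out 1 of 12 libraries ended some of these calls. The call of Itga3 ended in 8 cases (-3.40 to -2.54: B16F10 control replicates 1 and 2, B16F10 MRTFA 3, all E0771 controls, E0771 MRTFA 1 and 2), and that of Ilk in 7 (1.34 to 1.88: all B16F10 controls, B16F10 MRTFA 2, E0771 control 1, E0771 MRTFA 1 and 2). That of Itgb7 ended in 5 (-2.52 to -2.16: B16F10 MRTFA 2 and 3, E0771 control 3, E0771 MRTFA 1 and 2), and that of Lpp in 4 (1.05 to 1.24: B16F10 control 3, B16F10 MRTFA 2, E0771 control 1, E0771 MRTFA 2). Trip6 lost its call without B16F10 MRTFA replicate 2 (0.59) or E0771 control replicate 1 (0.61). Zyx (1.42, adjusted p = 0.0591) gained one without B16F10 control replicate 2 (1.63) or MRTFA replicate 3 (1.72).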

How the results depend on the processing

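Of 5170 member values recomputed under the alternatives, 76 lost a call, 53 gained one and 6 shares of the alpha sum moved. The other 5035 stayed on their side of the threshold, and 166 uncalled values changed sign. Of the called values 0 did so. A block on replicate number moved the genes called from 19 to 33 (MRTFB in E0771), 209 to 855 (MRTFA in B16F10, members 2 to 9), 17 to 603 (MRTFB in B16F10, members 0 to 2), 148 to 359 (MRTFB against MRTFA in B16F10, members 2 to 6), and, where numbers were not read as pairs, 3138 to 5165 and 17 to 81 (members 0 to 1) for the MRTFA and MRTFB line differences. Among counts it changed no other by over 1.5 times. Fitting all 18 libraries gave 421, 57 and 322 genes in the 3 B16F10 comparisons (MRTFA, MRTFB, and one against the other), and a minimum of 50 gave 107, 5 and 71. No filter gave 324 genes for MRTFA in B16F10 and 260 between factors, TMM scaling 6 for MRTFB in B16F10, and a pseudocount of 5 gave 28 for the MRTFB line difference. Without replicate 1 of E0771 MRTFA and control together, an alternative chosen after seeing the data, 2563 genes were called for MRTFA in E0771 (22 members) and 1782 for its line difference (15 members). Leaving out 1 library gave these ranges. In E0771 MRTFA had 3260 to 4621 genes (24 to 25 members), MRTFB 7 to 15 (0 members), and one against the other 2571 to 4392 (21 to 24). In B16F10 they were 37 to 324 (1 to 3), 0 to 129 (0) and 10 to 213 (0 to 3). There were 2171 to 3040 (16 to 20) and 2 to 47 (0) for the line differences, and 9775 to 10005 (27 to 31) for the controls. By longest transcript, Itga5 was 23.8%, 70.2% and 28.3% of the alpha sum in E0771 control, MRTFA and MRTFB, and Itga6 53.8%, 46.2% and 52.1% in the same B16F10 groups. The cause of these shifts was not tested. Genes near the minimum of 10 scaled reads, such as Itga3 in B16F10, are limited by depth.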

Other observations

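In B16F10, 19 of 36 members tested had their highest value in replicate 3 in all 3 groups, where 14.3% of all 13517 genes tested did. They were Itga1, Itga3, Itga7, Itgav, Itgb1, Itgb5, Itgb8, Tln1, Tln2, Vcl, Ilk, Lims1, Parva, Tns3, Zyx, Lpp, Tes, Pxn and Bcar1. Replicate 1 was the highest in all 3 groups for 2 members, Itgb3 and Crkl (12.2% of all genes), and replicate 2 for 0 (14.1%). In E0771 the counts were 0, 2 and 6 of 33 members for replicates 1, 2 and 3, beside 9.34%, 6.32% and 11.8% of all genes. The fibroblast marker Col1a1 was also highest in replicate 3 of each B16F10 group, at 1037, 1902 and 2434 scaled reads in control, MRTFA and MRTFB, against 128 to 336 in the other 6 libraries. So was Lyz2 of the same marker list, at 46.8, 49.6 and 24.1. Pdgfra was instead lowest in replicate 3 of the control (89.7) and MRTFA (99.2) groups and between replicates 1 and 2 with MRTFB (118). Pecam1, Cdh5 and Dcn were at 11.4 or less in B16F10. In E0771, Col1a1 was lowest in replicate 3 of each group, at 537, 545 and 1018. The summed immune, endothelial and fibroblast markers were 271 to 1176, 423 to 2071 and 272 to 2585 in the same B16F10 groups, much of it Col1a1. Their part in the members' pattern was not tested. What the numbers stand for was not tested.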
